A study of Homo sapiens with 3 samples.

Results

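The 41 genes described here encode the folding and degradation machinery of the endoplasmic reticulum, and they were taken as a fixed list by gene identifier from the 25702 genes counted in each library. The list held 22 folding genes (9 chaperones and their partners, 3 lectin chaperones and 10 oxidoreductases and isomerases), 11 genes of endoplasmic reticulum-associated degradation (ERAD), 3 genes grouped as sensors of the unfolded protein response (the sensors ERN1 and ATF6, and XBP1, the factor that ERN1 activates) and 5 genes of translocation and export. The rule used no measured value, but the list was drawn up with earlier results of these data known. RNA was sequenced from asynchronous Molm13 cells, an established human acute myeloid leukemia line, after 6 h with the DMSO vehicle, with 50 nM pyrvinium or with 100 nM pyrvinium, a cyanine dye long used against pinworm. Each condition had 1 library, so no comparison had a replicate check, and the intervals given here cover counting error only. A single line was used, and no other cell type or time point was analysed here.

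The endoplasmic reticulum is where secreted and membrane proteins fold with the help of Hsp70 and Hsp90 family chaperones, of lectins that read their glycans, and of enzymes that form disulfide bonds. Proteins that fail to fold are sent back to the cytosol and degraded by ERAD. When unfolded proteins build up, the sensors IRE1 (the product of ERN1), ATF6 and PERK start the unfolded protein response. Its transcription factors, cleaved ATF6 and spliced XBP1, raise chaperone and ERAD transcripts through short promoter elements, while PERK slows protein synthesis and acts through ATF4.

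The best known of these promoter elements is the endoplasmic reticulum stress element, ERSE, which was searched as CCAAT and CCACG with any 9 bases between them. ERSE-II was searched as ATTGG and CCACG with any 1 base between them. In the RefSeq promoter windows (GRCh38.p14, 250 bases before to 50 bases after each annotated start), 37 of the 41 genes had a window, and PDIA3, DERL1, DERL3 and SEC24D had none. On either strand, 9 of the 37 held an ERSE (24.3%) and 3 others held an ERSE-II (8.11%). Among all 27305 genes with a window, 0.0916% held an ERSE and 0.0696% an ERSE-II. The list consists mostly of chaperone and ERAD genes, the kind these elements are known to serve, so this contrast is not a test. The ERSE genes were HSPA5, HSP90B1, CRELD2, CALR, CANX, PDIA6, ERO1LB, SERP1 and XBP1, and the ERSE-II genes were HYOU1, SDF2L1 and HERPUD1. The 230 bases before the start are shown for 7 of them, chosen to show the major chaperones HSPA5, HSP90B1 and CALR and the HSPA5 partners HYOU1 and SDF2L1 beside HERPUD1 of ERAD and XBP1. Each sequence is written 5′ to 3′ on the gene's strand, and the capitals mark the matched ERSE or ERSE-II, in reverse complement where it lay on the opposite strand.
HSPA5 (chr9:125241344-125241573, minus strand): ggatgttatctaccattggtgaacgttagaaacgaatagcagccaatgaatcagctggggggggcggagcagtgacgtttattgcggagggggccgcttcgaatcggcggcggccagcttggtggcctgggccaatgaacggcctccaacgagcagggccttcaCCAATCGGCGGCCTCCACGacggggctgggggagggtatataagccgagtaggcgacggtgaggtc
HSP90B1 (chr12:103930180-103930409, plus strand): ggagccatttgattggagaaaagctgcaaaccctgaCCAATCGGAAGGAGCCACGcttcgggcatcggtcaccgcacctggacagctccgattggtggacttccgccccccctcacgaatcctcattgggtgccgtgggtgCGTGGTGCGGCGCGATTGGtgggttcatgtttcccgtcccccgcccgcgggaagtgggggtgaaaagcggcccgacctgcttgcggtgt
CALR (chr19:12938379-12938608, plus strand): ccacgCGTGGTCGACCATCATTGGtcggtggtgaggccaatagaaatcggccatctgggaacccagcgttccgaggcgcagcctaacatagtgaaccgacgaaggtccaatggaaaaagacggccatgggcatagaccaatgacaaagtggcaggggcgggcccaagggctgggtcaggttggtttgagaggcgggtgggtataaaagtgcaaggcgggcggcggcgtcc
HYOU1 (chr11:119057206-119057435, minus strand): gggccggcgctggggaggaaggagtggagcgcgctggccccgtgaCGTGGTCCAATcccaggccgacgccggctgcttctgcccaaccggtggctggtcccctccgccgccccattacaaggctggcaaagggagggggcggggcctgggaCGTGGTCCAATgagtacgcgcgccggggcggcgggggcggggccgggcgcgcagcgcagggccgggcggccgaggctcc
SDF2L1 (chr22:21642072-21642301, plus strand): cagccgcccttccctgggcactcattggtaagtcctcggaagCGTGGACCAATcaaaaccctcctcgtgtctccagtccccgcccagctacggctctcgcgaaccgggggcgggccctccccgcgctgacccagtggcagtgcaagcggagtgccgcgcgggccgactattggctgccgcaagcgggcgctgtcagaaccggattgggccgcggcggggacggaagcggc
HERPUD1 (chr16:56931912-56932141, plus strand): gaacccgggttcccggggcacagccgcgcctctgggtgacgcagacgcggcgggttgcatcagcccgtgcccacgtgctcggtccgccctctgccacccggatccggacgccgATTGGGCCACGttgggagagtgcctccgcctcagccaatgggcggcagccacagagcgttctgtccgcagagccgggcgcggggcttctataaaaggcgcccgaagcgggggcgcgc
XBP1 (chr22:28800570-28800799, minus strand): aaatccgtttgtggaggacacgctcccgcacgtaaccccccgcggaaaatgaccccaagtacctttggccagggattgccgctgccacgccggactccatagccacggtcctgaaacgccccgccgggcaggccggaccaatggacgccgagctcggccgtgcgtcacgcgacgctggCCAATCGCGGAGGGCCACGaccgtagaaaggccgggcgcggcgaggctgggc
HSP90B1 carried 2 ERSE matches in opposite orientations, and HYOU1 carried 2 ERSE-II matches. The core of the unfolded protein response element, TGACGTGG, was in 4 of the 37 windows (HYOU1, TXNDC5, TXNDC11 and VCP; 10.8%) and in 0.927% of all genes with a window, and in HYOU1 it overlapped an ERSE-II. The ATF4-type core TGATGNAAN was in 1 window, that of HERPUD1 (2.7%), against 4.45% of all genes.

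The libraries held 22677038 to 24075123 counts, and every one of the 41 genes passed the filter of at least 10 counts in at least 1 library, which kept 12879 genes in all. The lowest count of any of them in any library was 126. All 10 markers of acute myeloid leukemia and myeloid identity were detected, with summed levels of 1433 CPM (counts scaled to the library total) in DMSO, 1496 CPM at 50 nM and 1560 CPM at 100 nM. The summed markers of lymphocytes, erythroid cells, epithelium, fibroblasts and plasma cells stayed at or below 1.64 CPM, and CD3E, ALAS2, EPCAM and CDH1 were at 0 in all 3 libraries. Plasma cells, which carry much of this machinery, summed to at most 0.663 CPM.

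Most folding genes were lower at both doses (16 of 22 beyond counting error at 50 nM and 18 at 100 nM), while UGGT1 and ERP29 were higher at both. Of all genes tested, 18.5% were lower and 18.6% higher beyond counting error at 50 nM. The ERAD genes moved in both directions, and ERN1 and XBP1 were higher at 100 nM and ATF6 did not pass. Beyond counting error, 28 of the 41 were lower and 8 higher at 100 nM, that is, with a 95% counting interval that excluded no change, where 25.3% of all genes tested were lower and 24.0% higher by the same rule. Where a biological coefficient of variation of 0.1 between cultures was assumed (edgeR exact test, adjusted over all genes), 5 stayed lower (SDF2L1, MANF, HSPA5, CALR and HSP90B1) and 0 higher, and with 0.2 both counts were 0. The median log2 ratio of counts (after TMM scaling, with 0.5 counts added) was -0.22 over the 41 genes and -0.0023 over all genes tested. It was -0.45 over the folding genes, of which 18 of 22 were lower and 2 higher. It was -0.11 over the ERAD genes, with 6 of 11 lower and 4 higher, but -0.01 with DNAJB9 counted among them, and the log2 ratio of their summed counts was -0.04. It was -0.19 over the translocation and export genes, with 4 of 5 lower. Over the 3 genes grouped as sensors it was 0.26.

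At 1.5-fold or more, 6 genes were lower at 100 nM (2.69% of all genes tested were) and 0 were higher (4.97% of all genes). At 2-fold or more, 2 were lower, SDF2L1 and MANF (0.590% of all genes), and 0 were higher (2.09% of all genes). All 6 past 1.5-fold were folding genes. The other genes changed by less than 1.5-fold or not beyond counting error, as the plot of ratios by gene shows.

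**Figure D1:**
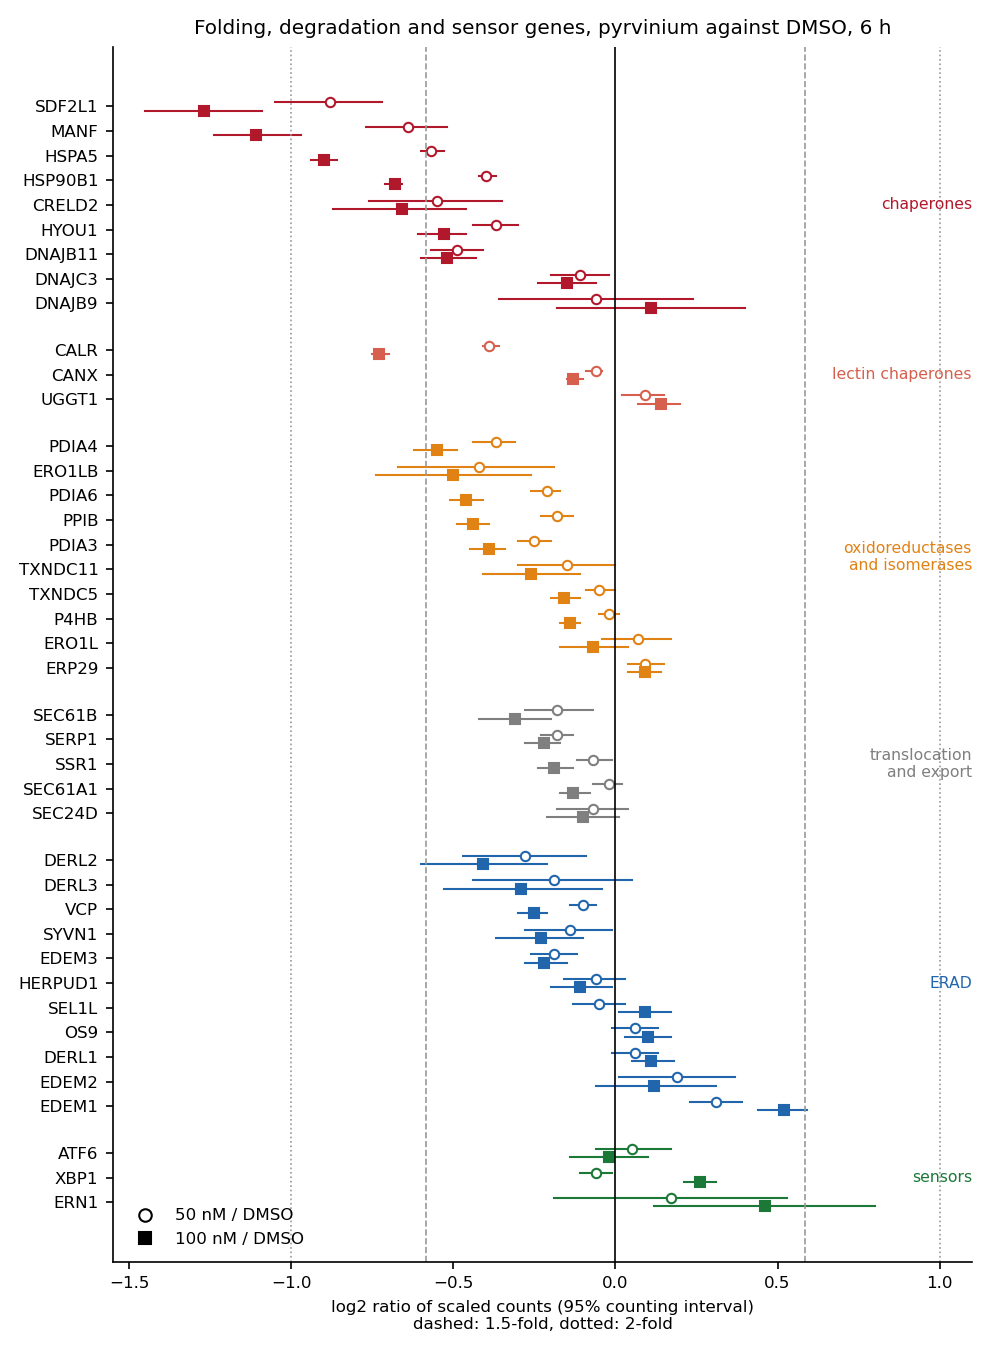
Log2 ratio of scaled counts against DMSO for the 41 genes, by role, at 50 nM (open circles) and 100 nM (filled squares), with 95% counting intervals (1 library per condition); dashed lines mark 1.5-fold and dotted lines 2-fold. The chaperones lie furthest to the left, down to -1.27 for SDF2L1, and EDEM1 lies furthest to the right, at 0.52.

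HSPA5 encodes BiP, the Hsp70 chaperone of the endoplasmic reticulum, which also holds the stress sensors inactive. It had 18101 counts in DMSO, 11928 at 50 nM and 10090 at 100 nM, or 197, 133 and 106 RPKM. The level was lower in each treated library, and lower at 100 nM than at 50 nM. The log2 ratio of the 50 nM library to DMSO was -0.57 (95% counting interval -0.60 to -0.53), and that of the 100 nM library was -0.90 (-0.94 to -0.86), a change of -46.4% in level. A linear dose trend fitted to all genes with edgeR's quasi-likelihood test gave a Benjamini-Hochberg adjusted p of 2.6e-07 for HSPA5. That fit has 1 residual degree of freedom, so its error is the departure from a straight line in dose and not the spread between cultures.

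SDF2L1 works in a complex with BiP and its J-domain partners, and had the largest fall of the list. Its counts were 864 in DMSO, 458 at 50 nM and 373 at 100 nM. Against DMSO its log2 ratio was -0.88 (-1.05 to -0.72) with the lower dose and -1.27 (-1.45 to -1.09) with the higher. MANF, a small secreted and luminal protein that binds BiP, went the same way. In the DMSO, 50 nM and 100 nM libraries MANF was counted 1347, 843 and 651 times, with log2 ratios of -0.64 (-0.77 to -0.52) and -1.11 (-1.24 to -0.97). SDF2L1 and MANF were the 2 genes past 1.5-fold lower already at 50 nM, where 1.37% of all genes tested were. CRELD2, a secreted protein that endoplasmic reticulum stress induces, had 487, 324 and 320 counts and a log2 ratio of -0.66 (-0.87 to -0.46) at 100 nM. Most of its difference was present at 50 nM, where the ratio was -0.55 (-0.76 to -0.35). That was 84% of its log2 ratio at 100 nM. In the other genes past 1.5-fold this share ran from 54% for CALR to 69% for SDF2L1.

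HSP90B1 encodes GRP94, the Hsp90 of this compartment and the chaperone of integrins and Toll-like receptors. It had 26031 counts in DMSO, 19302 at 50 nM and 16852 at 100 nM, or 404, 307 and 251 RPKM. The log2 ratio was -0.40 (-0.42 to -0.37) and then -0.68 (-0.71 to -0.66). Its processed copy HSP90B3P had 6 to 19 counts in the 3 libraries. HYOU1, the large Hsp70-like nucleotide exchange factor of BiP, fell by less. HYOU1 had 3828, 2900 and 2750 counts and a log2 ratio of -0.53 (-0.61 to -0.46) at 100 nM.

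The J-domain partners of BiP, which set off its ATP hydrolysis, differed among themselves. DNAJB11 had 2750 counts in DMSO, 1912 at 50 nM and 1997 at 100 nM. Its log2 ratio was -0.49 at 50 nM and -0.52 at 100 nM, and -0.03 (-0.12 to 0.06) between the doses. DNAJC3, which also inhibits PERK, had a log2 ratio of -0.15 (-0.24 to -0.06) at 100 nM. DNAJB9, a J protein that leads BiP to IRE1 and serves ERAD, had 190, 178 and 213 counts, and its log2 ratio of 0.11 (-0.18 to 0.40) included no change. DNAJB9 was the only 1 of the 9 chaperones and partners that did not pass the counting test at 100 nM. By that test, 25.3% of all genes tested were lower and 24.0% higher. Together these 9 genes took 0.240% of the counts in DMSO, with a Wilson interval from 0.238% to 0.242%. The share was 0.175% at 50 nM (from 0.173% to 0.177%) and 0.146% at 100 nM (from 0.145% to 0.148%).

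**Figure D2:**
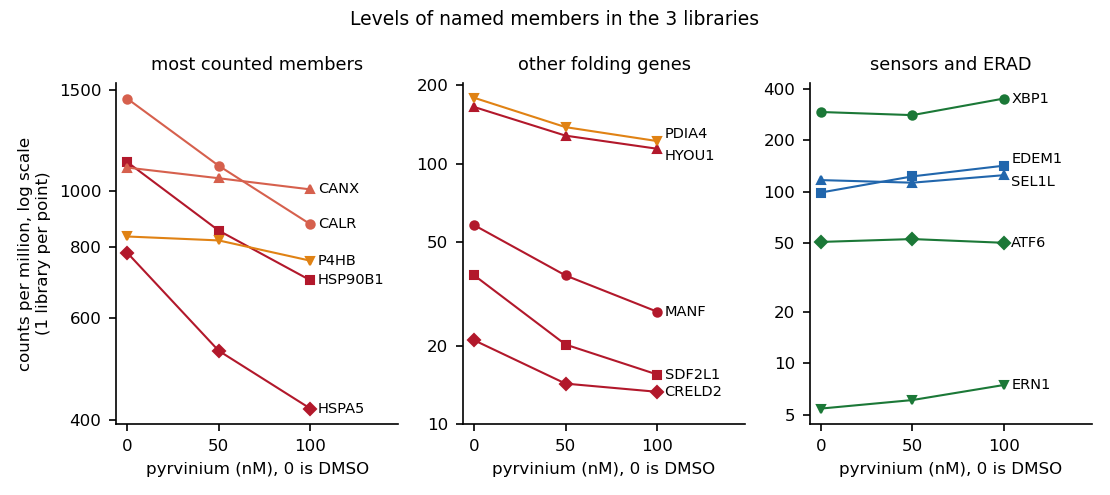
CPM, on TMM-scaled library sizes (log scale, a different range in each panel) against pyrvinium dose in nM, with 1 library per point and 0 standing for DMSO, for the most counted genes (left), other folding genes (centre) and sensor and ERAD genes (right). HSPA5 drops from 781 to 418, while CANX and P4HB change by -8.4% and -9.2%, and XBP1 is raised at 100 nM but not at 50 nM.

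The lectin chaperones retain newly made glycoproteins until they fold, calreticulin (CALR) in the lumen and calnexin (CANX) in the membrane. CALR was the highest of the 41 genes per length in every library, at 758 RPKM in DMSO, 579 at 50 nM and 458 at 100 nM, from 33552, 25031 and 21108 counts. Its log2 ratio was -0.39 (-0.41 to -0.36) with the lower dose and -0.73 (-0.75 to -0.70) with the higher. CANX had 25442, 23814 and 24247 counts, and its log2 ratio at 100 nM was -0.13 (-0.15 to -0.10). The intervals of CALR and CANX did not overlap. CALR went from 13.9% to 10.6% of the counts of the 41 genes, and CANX from 10.6% to 12.1%, so CANX was the most counted of them at 100 nM. UGGT1, the glucosyltransferase that marks misfolded glycoproteins for another round with these lectins, had 3469, 3598 and 3969 counts and was higher at 100 nM, with a log2 ratio of 0.14 (0.07 to 0.20).

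The 10 oxidoreductases and isomerases form and rearrange disulfide bonds or turn proline bonds. Beyond counting error, 8 of the 10 were lower and 1 higher at 100 nM, where 25.3% and 24.0% of all genes tested were. The median log2 ratio of the 10 was -0.33. PDIA4 had the largest fall, from 4158 counts in DMSO to 3133 at 50 nM and 2947 at 100 nM, with a log2 ratio of -0.55 (-0.62 to -0.49). ERO1LB came next in point value at -0.50, and PDIA6, PPIB (cyclophilin B, a prolyl isomerase) and PDIA3 (the disulfide isomerase that works with the lectins) followed, with log2 ratios of -0.46, -0.44 and -0.39. PDIA3 shares near-identical sequence with PDIA3P1, which was counted 4011, 3438 and 3100 times and had a log2 ratio of -0.43, so reads may be split between them. P4HB, the founding disulfide isomerase, had 19295, 18568 and 18221 counts and a log2 ratio of -0.14 (-0.17 to -0.11). ERP29 had 5651, 5891 and 6259 counts and was the 1 that was higher, at 0.09 (0.04 to 0.14).

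The pair of oxidases that recharge the disulfide isomerases had intervals that did not overlap at 100 nM. ERO1LB (ERO1B) had 348 counts in DMSO, 253 at 50 nM and 256 at 100 nM, with a log2 ratio of -0.50 (-0.74 to -0.26) at 100 nM. ERO1L (ERO1A), the form that hypoxia induces, had 1479, 1512 and 1467 counts and a log2 ratio of -0.07 (-0.17 to 0.04). Of the rest, TXNDC11 and TXNDC5 were lower, at -0.26 and -0.16.

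Several of these genes overlap a gene on the opposite strand, and whether the counting used strand is not given in the sources used here. The overlapped share of exon length was 50.2% for PPIB (SNX22, 11 to 19 counts), 44.4% for PDIA6 (ATP6V1C2, 2 to 18 counts), 25.9% for P4HB and 21.0% for CALR. For 3.0% of its length SYVN1 overlapped MRPL49, which was well expressed, at 1287 to 1501 counts. The part of these overlaps in the ratios was not tested.

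In ERAD, the genes of the membrane complex and the mannosidase-like lectins split. DERL2, a derlin that helps pull substrates across the membrane, had the largest fall, with 512, 412 and 402 counts and a log2 ratio of -0.41 (-0.60 to -0.21) at 100 nM. DERL3 was at -0.29 (-0.53 to -0.04), and DERL1 at 0.11 (0.05 to 0.18), on the other side of no change. VCP, the cytosolic ATPase that extracts substrates, had 10000 counts in DMSO, 9106 at 50 nM and 8718 at 100 nM, and a log2 ratio of -0.25 (-0.30 to -0.21). SYVN1, the ubiquitin ligase at the centre of the complex, was at -0.23 (-0.37 to -0.10), while its partner SEL1L was at 0.09 (0.01 to 0.17). HERPUD1, which organises that complex and is a common stress marker, had 1865, 1743 and 1803 counts and a log2 ratio of -0.11 (-0.20 to -0.01), and OS9, a lectin that delivers substrates, was at 0.10 (0.03 to 0.17).

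EDEM1, EDEM2 and EDEM3 trim mannose from glycoproteins that are to be degraded, and these paralogs did not go the same way. EDEM1 had 2294 counts in DMSO, 2784 at 50 nM and 3417 at 100 nM. It was higher at each step, with a log2 ratio to DMSO of 0.31 (0.23 to 0.39) after 50 nM and of 0.52 (0.44 to 0.59) after 100 nM, the largest rise of the 41 genes. EDEM3 was lower, from 3747 to 3207 and 3353 counts, at -0.22 (-0.28 to -0.15), and EDEM2 had a ratio of 0.12 (-0.06 to 0.31) at 100 nM. The summed ERAD counts changed little, from 0.127% of the library in DMSO to 0.124% at 50 nM and 0.123% at 100 nM, where the folding genes went from 0.778% to 0.655% and 0.577%, as the plot of shares shows.

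In the sensor group, XBP1 encodes not a sensor but the transcription factor that IRE1 activates by splicing its mRNA. It had 6769 counts in DMSO, 6333 at 50 nM and 8437 at 100 nM, or 160, 154 and 192 RPKM. The 100 nM library was the high one, with a log2 ratio of 0.26 (0.21 to 0.31) to DMSO and 0.32 (0.28 to 0.37) to 50 nM, whereas the ratio of 50 nM to DMSO was -0.06 (-0.11 to -0.01). Gene counts do not separate the spliced from the unspliced form of XBP1. ERN1, the IRE1 kinase and nuclease itself, was the lowest of the 41 genes, with 126, 138 and 180 counts and a log2 ratio of 0.46 (0.12 to 0.80) at 100 nM. ATF6, which is activated by cleavage in the Golgi and whose transcript level need not follow its activity, had 1183, 1199 and 1215 counts and a log2 ratio of -0.02 (-0.14 to 0.10). At 50 nM the median of the sensors was 0.05, and the ratio of their summed counts was -0.04, since XBP1 makes up most of the sum.

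The translocation and export genes fell slightly. SEC61B, a subunit of the channel through which new proteins enter, had 1549, 1338 and 1298 counts and the largest fall, at -0.31 (-0.42 to -0.20). SERP1, which protects new membrane proteins, and SSR1, a subunit of the translocon-associated complex, were at -0.22 and -0.19, and the channel subunit SEC61A1 was at -0.13. SEC24D, a cargo adaptor of export vesicles, had 1417, 1318 and 1376 counts and a ratio of -0.10 (-0.21 to 0.01) that included no change.

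Fewer genes passed with the lower dose. Beyond counting error, 24 genes were below DMSO at 50 nM and 4 above it, against 18.5% and 18.6% of all genes tested. The median was -0.11 over the 41 genes, -0.23 over the folding genes and -0.06 over the ERAD genes. Between the doses, a comparison that leaves out the DMSO library, 18 were lower and 3 higher at 100 nM than at 50 nM, against 14.3% and 12.5% of all genes. The 3 were XBP1, EDEM1 and SEL1L. In point values, 29 of the 41 genes (70.7%) fell at both steps and 5 rose at both (12.2%), where 28.0% and 28.4% of all genes did. The dose trend called 18 of the 41 lower and 2, EDEM1 and XBP1, higher at an adjusted p of at most 0.05 (edgeR), against 10.4% and 10.1% of all genes. DESeq2 called 10 lower and 1 higher in the same linear fit. The comparisons with DMSO share that 1 library.

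**Figure D3:**
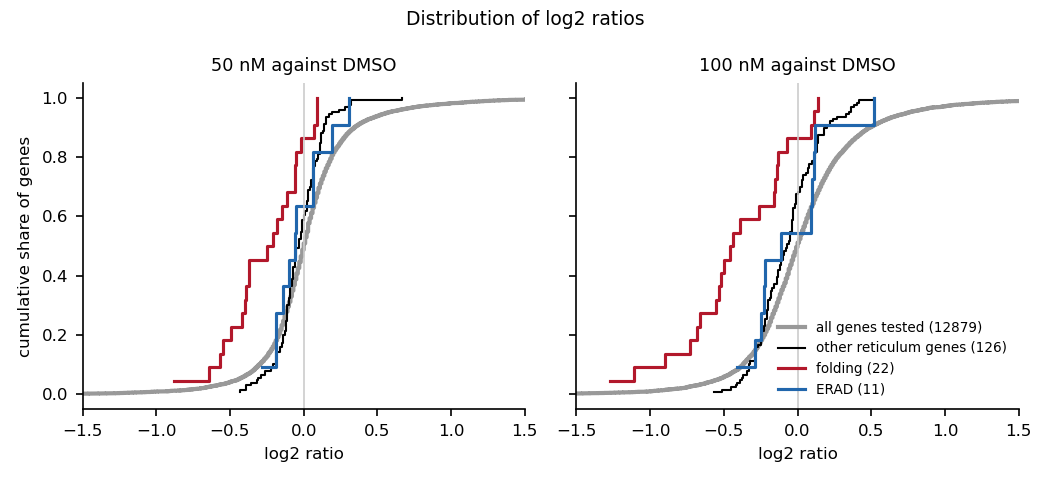
Cumulative share of genes against the log2 ratio to DMSO at 50 nM (left) and 100 nM (right) for all 12879 genes tested, 126 other genes that work in or with the endoplasmic reticulum, the 22 folding genes and the 11 ERAD genes (the axis ends at 1.5 on either side). The folding curve lies left of the others, with medians of -0.23 and -0.45.

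Genes outside the list that work in or with this compartment had a median nearer to no change. Of 133 such genes, some of which act in the cytosol, nucleus or mitochondria, 126 passed the filter. At 100 nM, 58 were lower and 27 higher beyond counting error, where 25.3% and 24.0% of all genes tested were. The median log2 ratio of the 126 was -0.07. Past 1.5-fold there were 0 of them in either direction, where 2.69% of all genes tested were lower and 4.97% higher. In 20 other folding and redox genes the median was 0.01, with FKBP7 lowest at -0.51 (-0.84 to -0.18) and HSPA13, an atypical Hsp70, highest at 0.42 (0.32 to 0.52). In 26 other ERAD genes the median was -0.01, with SELK lowest at -0.34 and UBXN8 highest at 0.40. In 10 glycan trimming and lectin genes the lowest was the glucosidase MOGS, at -0.45, and the highest was UGGT2, the paralog of UGGT1, at 0.52 (0.38 to 0.67).

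The entry and exit routes leaned lower. Of 33 other translocon, signal peptidase and oligosaccharyltransferase genes, 20 were lower and 3 higher beyond counting error at 100 nM. By that rule, 25.3% of all genes tested were lower and 24.0% higher. The median of the 33 was -0.11, with a range from -0.41 for DAD1 to 0.20 for SRP72. Of 22 genes of export vesicles and retrieval, 14 were lower and 3 higher, with a median of -0.20 and a range from -0.39 for PREB to 0.24 for SEC16A. In 15 other genes of the sensor pathways the median was -0.04, with BAK1, a mitochondrial cell-death protein that also binds IRE1, lowest at -0.57 and TMBIM6 highest at 0.22. EIF2AK3, which encodes PERK, was looked up after the other values were seen and had 380, 408 and 447 counts, with a log2 ratio of 0.18 (-0.02 to 0.38) at 100 nM.

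Genes listed for the ATF4 and CHOP branch went the other way. All 11 were higher at 100 nM beyond counting error, where 24.0% of all genes tested were. Their median log2 ratio was 1.02, with a range from 0.13 for PPP1R15B to 2.05 for CHAC1. CHAC1, a glutathione-degrading enzyme, had 88, 219 and 382 counts. Several of the 11, such as ASNS, SESN2 and CHAC1, were already known to be higher in these data, so the count is not a test. CHOP itself (DDIT3) had 236, 319 and 500 counts. What lay upstream of these genes, PERK or another route, was not tested.

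The promoter elements shown above were set beside the ratios as a description. Of the 12 genes with an ERSE or ERSE-II, 11 were lower beyond counting error and 1, XBP1, was higher, with a median log2 ratio of -0.52 and a range of -1.27 to 0.26. Of the 25 with a window and neither element, 15 were lower and 6 higher, with a median of -0.15 and a range of -1.11 to 0.52. By the same rule, 25.3% of all genes tested were lower and 24.0% higher. Within the folding genes, the 9 with an element had a median of -0.66 and the 12 without had -0.15. The ranges overlapped: MANF had no match in its window and fell by 1.11 on the log2 scale, and CANX held an ERSE and was at -0.13. A match in these letters is not a bound site, and a window without one says only that the letters were not there.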

How the data were processed

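Per the study's methods, strand-specific libraries were sequenced in pairs and the authors aligned the reads to hg19 with Rsubread; the deposited files hold raw counts per gene by Entrez identifier from featureCounts, 1 library per file. The authors' table of EBSeq comparisons (posterior probabilities, fold changes and condition means) was not used. Counts were scaled by TMM (edgeR 4.0.16, R 4.3.3), and each log2 ratio, with 0.5 counts added per library, was given a 95% Clopper-Pearson counting interval (scipy 1.17.1). The tests took genes that reached 10 counts in any library. By the planned rule, a gene counted as changed at 2-fold or more with an interval excluding no change. Counts given as beyond counting error used the interval alone, and 1.5-fold was a second threshold. RPKM used the exon lengths in the files. The dose trend was edgeR's quasi-likelihood test with Benjamini-Hochberg adjustment, and DESeq2 1.42.0 was an alternative. Scripts were tested on simulated data. The members, gene lists, promoter elements and tests were chosen with earlier results of these data known.

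Library totals were 23165771 counts in DMSO, 22677038 at 50 nM and 24075123 at 100 nM, so 3 counts, the floor for a gene at 0, were 1.25e-05% to 1.32e-05% of a library. Symbols were matched by identifier for 23696 of 25702 genes. By the naming rule, counts in each library were given for members past 1.5-fold at 100 nM, for the sensors and for the largest fall and rise in each role group; counts of other members were added after the values were seen. Of each other list the rule named the largest fall and rise. Protein sequence features were not analysed here.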

Additional observations from a re-analysis of the deposited data

Results flagged for a closer look

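XBP1 was the 1 gene of the 41 that lay beyond counting error on opposite sides of DMSO at the 2 doses. Its log2 ratio was -0.06 (95% counting interval -0.11 to -0.01) at 50 nM and 0.26 (0.21 to 0.31) at 100 nM. With 1 library per dose, the difference between the doses was not tested against replicates. Of all genes tested, 34 (0.264%) had opposite directions by the same rule.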

How the results depend on the processing

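With 1 library per condition no replicate could be left out, and all intervals cover counting error only. The scalings tried (total counts, size factors of DESeq2, and TMM leaving out the mitochondrially encoded genes) differed by at most 0.0050 on the log2 scale and moved the count of genes lower beyond counting error at 50 nM between 23 and 25, with 24 as reported; the counts at 100 nM and between the doses were the same under them, with 5 added counts, with no filter and with a filter of 50 counts. At 100 nM, the 2 genes lower at 2-fold became 6 at 1.5-fold and 28 with no fold threshold, and the 0 higher became 8 with none. At 50 nM, 0 lower became 2 at 1.5-fold and 24 with none, and 0 higher became 4. Between the doses, 0 lower became 18 and 0 higher became 3 with none. Where a biological coefficient of variation of 0.1 was assumed (edgeR exact test, adjusted over all genes), SDF2L1 and MANF remained lower at 2-fold at 100 nM, and with 0.2 or 0.4 the count was 0. With no fold threshold, an alternative added after seeing the data, the 28 lower at 100 nM became 5, the 24 at 50 nM became 1 (SDF2L1) and the 18 between the doses became 0 with 0.1, and each became 0 with 0.2 or 0.4; the counts higher became 0 with 0.1, 0.2 and 0.4 in all 3 comparisons. The real variation between cultures is unknown, so which of these holds was not tested. The dose trend called 10 lower and 1 higher by DESeq2 in place of 18 and 2; 2 of the genes had no DESeq2 adjusted p, and the cause of the other losses was not tested. With DNAJB9 counted in ERAD the ERAD median at 100 nM was -0.01 in place of -0.11, since the added gene moves the middle of a short list.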

Other observations

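Outside the 41 genes, 32 genes had an ERSE or ERSE-II in their RefSeq promoter window, and 15 of them were tested. At 100 nM, 7 were lower and 1 was higher beyond counting error, where 25.3% and 24.0% of all genes tested were. The median log2 ratio of the 15 was -0.16. The 1 higher was EIF2A, at 0.14 (0.08 to 0.19), whose window overlaps that of SERP1, which was at -0.22. ALG12, a mannosyltransferase of glycan assembly whose window overlaps that of CRELD2, was counted 484 times in DMSO, 391 at 50 nM and 373 at 100 nM, at -0.43 (-0.63 to -0.23). FICD, the enzyme that attaches AMP to BiP, was lowest, with 44, 35 and 23 counts and a log2 ratio of -0.98 (-1.79 to -0.23). The other genes lower beyond counting error were RAD9A at -0.44 (-0.64 to -0.25), SETD3 at -0.24, GYS1 and SHCBP1 at -0.23 and NUCB1 at -0.16. All these genes were named after their values were seen.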
